A study of Mus musculus with 12 samples.

Results

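The 37 genes of the mouse mitochondrial genome (mtDNA) were followed in fibroblasts grown with or without induction of the reprogramming factors and with or without vitamin B12. They were taken as every row of the deposited count table whose Ensembl identifier carries a symbol beginning with mt-, which gave 37 of 55573 genes. Of these, 13 encode proteins of the respiratory chain and ATP synthase, 2 encode the rRNAs of the mitochondrial ribosome and 22 encode tRNAs. The cells were i4F mouse embryonic fibroblasts (MEFs) of mid-gestation C57BL/6 embryos, from a line of mice in which doxycycline switches on Oct4, Sox2, Klf4 and cMyc (OSKM), and all groups carried this cassette. MEF cells received neither agent, MEF + B12 cells received vitamin B12 at 2 µM, doxy-OSKM cells received doxycycline at 1 µg/ml per the labels, and doxy-OSKM + B12 cells received both. Cells were plated at 300000 per well in medium for induced pluripotent stem (iPS) cells and collected after 72 h. Cells of 3 embryos, called clones 1 to 3, each gave 1 library of every group, so that each group had n = 3 and there were 12 libraries. As uninduced cells had no doxycycline, effects of the drug cannot be told apart from those of the factors. The titles date clone 1 to a later year than clones 2 and 3.

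The mitochondrial genome is a small circle that encodes core subunits of complexes I, III and IV and of ATP synthase (complex V), together with the rRNAs and tRNAs that translate them inside the organelle. Both of its strands are read as long RNAs by the polymerase POLRMT with the factors TFAM and TFB2M, and the long RNAs are cut largely at the tRNAs that lie between the mRNAs. Most of the mRNAs then receive a short poly(A) tail, which the LRPPRC and SLIRP complex helps to maintain. Fibroblasts that become pluripotent are known to remodel their mitochondria and to rely more on glycolysis. The RNA was selected by its poly(A) tail before sequencing, so the counts of tRNAs, rRNAs and mt-Nd6, whose mRNA carries little or no tail in mammals, depend on capture as well as on abundance.

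Library totals lay between 56971244 and 79236795 counted read pairs. Pou5f1, which encodes the factor Oct4, was at 19.3, 18.5 and 2.86 CPM (counts divided by the library total in units of 1e6, after TMM scaling) in doxy-OSKM clones 1, 2 and 3 and at no more than 0.468 CPM in the MEF libraries. Sox2 was likewise at 15.5, 13.3 and 2.33 CPM in doxy-OSKM and at no more than 0.658 CPM in MEF, so these 2 factors were at their lowest induced level in clone 3. In the edgeR test below, averaged over both B12 states, Pou5f1, Sox2 and Myc were called higher in induced cells and Klf4 lower (log2 fold change -0.12). The summed level of the 4 factor genes was 162.3, 160.6 and 143.0 CPM in MEF clones 1, 2 and 3. In doxy-OSKM it was 209.7, 198.2 and 143.9 CPM. The summed level of 10 fibroblast markers was 116291 to 141786 CPM in MEF, 112799 to 114281 CPM in MEF + B12, 88168 to 116907 CPM in doxy-OSKM and 93756 to 104574 CPM in doxy-OSKM + B12. The label of fibroblasts thus held in all libraries by these markers.

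Stretches of the mitochondrial genome show how closely its genes are packed and where 3 of the 13 mRNAs leave their stop codon unfinished. Coordinates are on build GRCm38, the sequences are read from that genome on the plus strand, and they are shown because the poly(A) tail that the libraries were selected on also supplies the missing bases of the stop codon. In the next 4 lines, capitals mark the last bases of each mRNA, a lone T for mt-Co3 (chrM:9363-9390), mt-Nd4 (chrM:11517-11544) and mt-Cytb (chrM:15261-15288), against a complete stop codon for mt-Nd3 (chrM:9777-9806).
mt-Co3 end: tacgtctccatttattgatgaggatctT
mt-Nd4 end: ccaaaactaattacaggcctgacaataT
mt-Cytb end: gaagacaaaatactaaaattatatccaT
mt-Nd3 end: acacaaaaaggattagaatgaacagagTAA
The genes mt-Atp8, mt-Atp6 and mt-Co3 follow each other without a tRNA between them. In the next 2 lines, capitals mark the 43 bases that belong to both mt-Atp8 and mt-Atp6 (shown within chrM:7907-7989) and the single base that belongs to both mt-Atp6 and mt-Co3 (shown within chrM:8587-8627).
mt-Atp8 and mt-Atp6 junction: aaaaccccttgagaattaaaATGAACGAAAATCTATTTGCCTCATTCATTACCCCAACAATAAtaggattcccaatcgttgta
mt-Atp6 and mt-Co3 junction: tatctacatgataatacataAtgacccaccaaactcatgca
A read pair across such a junction can be given to either gene, and how the authors' counting treated it is not given in the sources used here.

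Nuclear DNA holds near-identical copies of part of this genome, so the counts of several members are uncertain, above all of the 6 with a copy as defined here. An annotated nuclear gene was called a copy where it held at least 50% of the 31-base words of a member. There were 6 such genes, all unprocessed pseudogenes in 1 block on chromosome 1 (chr1:24611535-24615565), and all on the minus strand. Gm28437 held 99.9% of the words of mt-Co3, Gm28661 held 99.5% of those of mt-Co2, Gm10925 held 99.5% of those of mt-Atp6, Gm10222 held 98.9% of those of mt-Nd4l and Gm28438 held 98.1% of those of mt-Nd3. The lowest share above the limit was 62.8%, for Gm28439 and mt-Nd4, and the highest below it was 47.1%, for Gm13341 and mt-Co2. The starts of mt-Nd3 (chrM:9459-9498, plus strand) and Gm28438 (chr1:24613080-24613119, minus strand) are shown because mt-Nd3 is the member with the smallest spread below. Capitals mark the position at which they differ in this window, T3C, counted from 1 at the 5′ end of mt-Nd3.
mt-Nd3 start: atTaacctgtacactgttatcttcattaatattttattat
Gm28438 start: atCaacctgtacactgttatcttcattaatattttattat
The counts of a copy kept a near-constant ratio to those of its member. In the 12 libraries the count of Gm28438 was 0.997 to 0.999 times that of mt-Nd3, and that of Gm28437 exceeded that of mt-Co3 by at most 31 counts although mt-Co3 had between 33930 and 114485. The ratio was 1.24 to 1.26 for Gm10925 and mt-Atp6, 0.920 to 0.950 for Gm10222 and mt-Nd4l and 0.559 to 0.600 for Gm28439 and mt-Nd4. The counts of a member and its copy are therefore not separate measurements of 2 loci. No word of 23 members was found in a nuclear transcript, mt-Rnr1 and mt-Nd1 among them, while 7.47% of the words of mt-Atp8 were. For mt-Co1 it was 63.9%, spread over several nuclear genes of which none reached the limit, and Gm29216 beside the other copies on chromosome 1 held 0.263 to 0.295 times its count. The values of mt-Co1 below are therefore uncertain in the same way.

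The share of all counts that fell on the 37 genes was small and varied 3.84-fold between the lowest and the highest library. It was 0.524%, 0.319% and 0.553% in MEF clones 1, 2 and 3 and 1.23%, 0.989% and 0.408% in doxy-OSKM. With B12 it was 0.552%, 0.816% and 0.594% in MEF and 0.795%, 0.999% and 1.05% in doxy-OSKM. The mean share was 0.465% ± 0.127 (SD, n = 3) in MEF, 0.654% ± 0.142 in MEF + B12, 0.875% ± 0.422 in doxy-OSKM and 0.946% ± 0.133 in doxy-OSKM + B12. The doxy-OSKM libraries had the widest spread and overlapped the MEF libraries, since that of clone 3 lay below the MEF libraries of clones 1 and 3. Within a clone, the share in doxy-OSKM was 2.34, 3.10 and 0.738 times that in MEF for clones 1, 2 and 3. With B12 on both sides the ratios were 1.44, 1.22 and 1.76, so that all 3 clones then had the higher share after induction. The protein-coding mRNAs made up 94.4% to 97.8% of the mtDNA counts in each library. Fewer mitochondria per cell and less RNA per mitochondrion cannot be told apart in such bulk libraries, nor can fewer cells of a type and less RNA per cell.

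**Figure D1:**
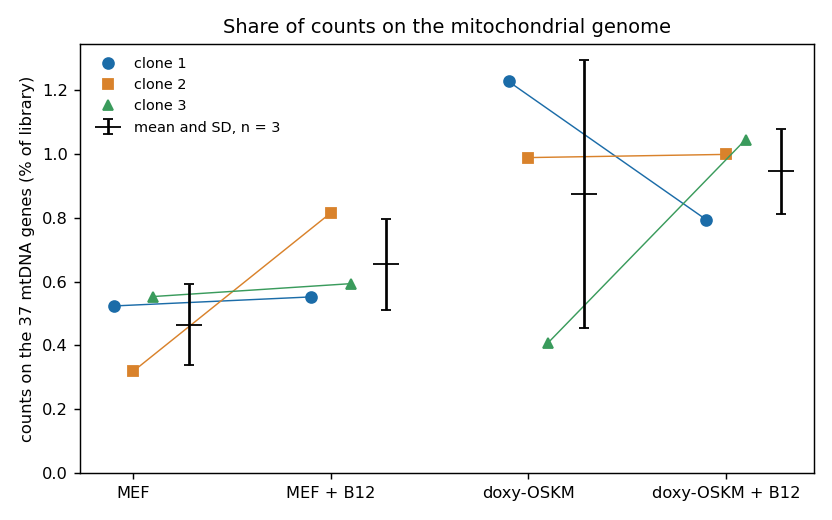
Share of the counts of each library, in percent, that fell on the 37 mtDNA genes, by group. Points are libraries joined by clone between the cultures without and with B12, and bars are the mean and SD (n = 3). The share in doxy-OSKM ran from 0.408% in clone 3 to 1.23% in clone 1, while that in doxy-OSKM + B12 ran from 0.795% to 1.05%.

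Per kilobase of gene, the mRNAs of ATP synthase and cytochrome c oxidase led. The mean level over the 12 libraries was 1424 CPM per kb for mt-Atp6, 1396 for mt-Co3, 1030 for mt-Co1, 961 for mt-Co2 and 721 for mt-Atp8. mt-Cytb of complex III followed at 564 CPM per kb. The complex I subunits mt-Nd1, mt-Nd3, mt-Nd4, mt-Nd2, mt-Nd5 and mt-Nd4l came next, from 471 down to 226 CPM per kb. The rRNAs were lower, at 99.2 CPM per kb for mt-Rnr2 and 68.0 for mt-Rnr1, and the last mRNA was mt-Nd6 at 15.7. mt-Nd6 is the only mRNA gene on the minus strand and it overlaps mt-Nd5 on the opposite strand by 14 bases. Some neighbours in this order were not separated by more than their spread. mt-Atp6 was above mt-Co3 per kb in 7 of 12 libraries, with a log2 ratio of -0.01 ± 0.19 (SD, n = 12), and mt-Nd1 was above mt-Nd3 in 8 of 12, with a log2 ratio of 0.01 ± 0.46. By contrast, mt-Co2 was above mt-Atp8, mt-Nd5 above mt-Nd4l, mt-Nd4l above mt-Rnr2, mt-Rnr2 above mt-Rnr1 and mt-Rnr1 above mt-Nd6 in 12 of 12 libraries.

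**Figure D2:**
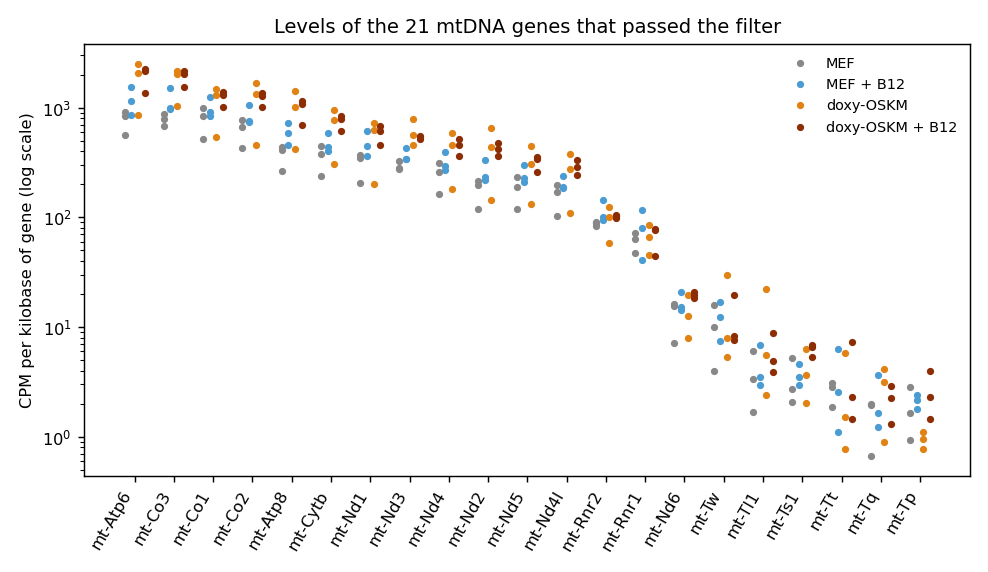
Level of the 21 mtDNA genes that passed the filter on low counts, in CPM per kilobase on a log scale, with 1 point per library coloured by group. The genes are ordered by their mean, from 1424 CPM per kb for mt-Atp6 to 15.7 for mt-Nd6 and lower for the tRNAs.

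Without B12, induction was compared as doxy-OSKM against MEF, and 1 of the 21 members tested was called higher and 0 lower, mt-Nd3 being that gene. This compares with 14 of 19174 genes, or 0.073%, over the whole table in the same edgeR quasi-likelihood test (Benjamini-Hochberg adjusted p under 0.05). At an unadjusted p under 0.05 there were 7 of the 21 members, against 3640 of the 19174 genes. The median log2 fold change of the 13 mRNAs was 0.83, against -0.01 over all genes tested, and their median standard error was 0.371 against 0.092. The fold changes of the mRNAs were thus estimated less precisely than those of a typical gene. In 2 of the 21 members, mt-Nd3 and mt-Co3, all doxy-OSKM libraries lay above all MEF libraries, and the groups did not overlap, in either direction, in 9.09% of all genes tested.

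Among the 7 complex I genes, mt-Nd3 was the one with the tightest clones. Its level was 113.7, 96.7 and 98.4 CPM in MEF clones 1, 2 and 3 and 275.3, 197.3 and 158.4 CPM in doxy-OSKM, so the groups did not overlap. The log2 fold change was 1.01 ± 0.15 (SE), a 2.02-fold higher level, with an adjusted p of 0.0421 from edgeR and the higher value in 3 of 3 clones. As its reads are shared with Gm28438, whose own log2 fold change was 1.02 ± 0.15, the value is that of the pair. The call was lost without clone 1 (adjusted p = 0.0928), without clone 2 (0.607), without the doxy-OSKM library of clone 1 (0.0631), without the MEF library of clone 2 (0.404) and without the block for clone (0.705), all in edgeR, while 11 members were called without clone 3. Over all genes, the same fits called 1, 1, 5, 3 and 0 genes in this order, and 1322 of 19231 without clone 3. mt-Nd2 stood at 224.1, 124.1 and 206.5 CPM in MEF and 676.7, 453.4 and 150.9 CPM in doxy-OSKM, with a log2 fold change of 1.13 ± 0.41 (adjusted p = 0.200). Here the doxy-OSKM library of clone 3 lay within the range of the MEF libraries, as it did for mt-Nd4, mt-Nd4l and mt-Nd5, and for mt-Nd1 it lay below all of them. The log2 fold changes of mt-Nd1, mt-Nd4, mt-Nd4l and mt-Nd5 were between 0.66 and 0.70, with adjusted p from 0.340 to 0.370. mt-Nd6, the antisense-strand subunit, stood at 8.0, 3.71 and 8.50 CPM in MEF and 6.53, 10.1 and 4.12 CPM in doxy-OSKM, with a log2 fold change of -0.01 ± 0.34 (adjusted p = 0.988).

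The single complex III member, mt-Cytb, encodes cytochrome b. It was at 431.8, 273.9 and 515.2 CPM in MEF and 1081, 880.5 and 352.5 CPM in doxy-OSKM, and did not pass the test (log2 fold change 0.89 ± 0.36, adjusted p = 0.228). Of the complex IV members, which form the catalytic core of cytochrome c oxidase, mt-Co3 was closest to the threshold. It stood at 686.2, 536.4 and 614.1 CPM in MEF and 1698, 1582 and 810.3 CPM in doxy-OSKM. The groups did not overlap, yet the spread left it short of the threshold (log2 fold change 1.11 ± 0.24, adjusted p = 0.159, higher in 3 of 3 clones). mt-Co1, the most counted of the 37 genes, was at 1289, 796 and 1544 CPM in MEF and 2268, 2027 and 828.6 CPM in doxy-OSKM. Its log2 fold change of 0.46 ± 0.35 (adjusted p = 0.490) was the smallest of the plus-strand mRNAs, and that of mt-Co2 was 0.83 ± 0.39 (adjusted p = 0.273).

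The pair of ATP synthase subunits had the largest log2 fold changes of the mRNAs. mt-Atp8 stood at 83.4, 53.6 and 89.7 CPM in MEF and 290.5, 209.1 and 86.0 CPM in doxy-OSKM (log2 fold change 1.34 ± 0.39, adjusted p = 0.163). mt-Atp6, which overlaps it by the 43 bases shown above, stood at 574, 380.3 and 620.7 CPM in MEF and 1718, 1403 and 589.1 CPM in doxy-OSKM (1.21 ± 0.37, adjusted p = 0.168). For both, clones 1 and 2 were far above their MEF libraries while clone 3 was slightly below its own.

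The rRNAs showed little difference between the groups. mt-Rnr1, the 12S rRNA, was at 45.2, 60.9 and 68.4 CPM in MEF and 63.1, 80.9 and 43.8 CPM in doxy-OSKM (log2 fold change 0.12 ± 0.25, adjusted p = 0.819). mt-Rnr2, the 16S rRNA, was at 139.3, 130.7 and 144.4 CPM in MEF and 195.1, 161.2 and 93.4 CPM in doxy-OSKM (0.08 ± 0.21, adjusted p = 0.855). As a share of mtDNA counts, the rRNAs took 3.57%, 5.60% and 3.75% in MEF and 2.18%, 2.48% and 3.31% in doxy-OSKM. The groups did not overlap in this share, while they did in the levels of both rRNAs. The share also depends on the mRNAs, which made up 94.4% to 97.8% of the mtDNA counts, and it was not tested. The tRNA genes gave 59 to 332 counts per library, and 6 of 22 passed the filter on low counts, namely mt-Tl1, mt-Tq, mt-Tw, mt-Ts1, mt-Tt and mt-Tp. Of these, mt-Tl1, which lies between mt-Rnr2 and mt-Nd1, had 26, 8 and 16 counts in MEF and 112, 24 and 14 counts in doxy-OSKM (log2 fold change 1.23 ± 0.43, adjusted p = 0.189). The other 16 tRNA genes had 162 counts over all libraries and at most 6 in any library, and mt-Ts2 had 0, so that no difference in them was detectable at this depth.

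The clones did not respond alike by value. In clone 1, 12 of 13 mRNAs were higher in doxy-OSKM than in MEF, with a median log2 difference of 1.28 and mt-Nd6 as the exception. In clone 2, 13 of 13 were higher, from 1.03 for mt-Nd3 to 1.96 for mt-Atp8. In clone 3, only mt-Co3 and mt-Nd3 were higher, by 0.40 and 0.69, and the median was -0.74. Clone 3 was also the clone with the lowest Pou5f1 and Sox2 above. The test of clone by state terms took both B12 states together, so it does not test the differences without B12 alone. It asks if clones differ in the effect of induction, and it called 413 of 19174 genes (2.15%) in edgeR. It called 0 members in edgeR and 0 in DESeq2. The lowest adjusted p among members was 0.503, for mt-Tl1, and 0 had an unadjusted p under 0.05, against 2841 of 19174 genes.

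**Figure D3:**
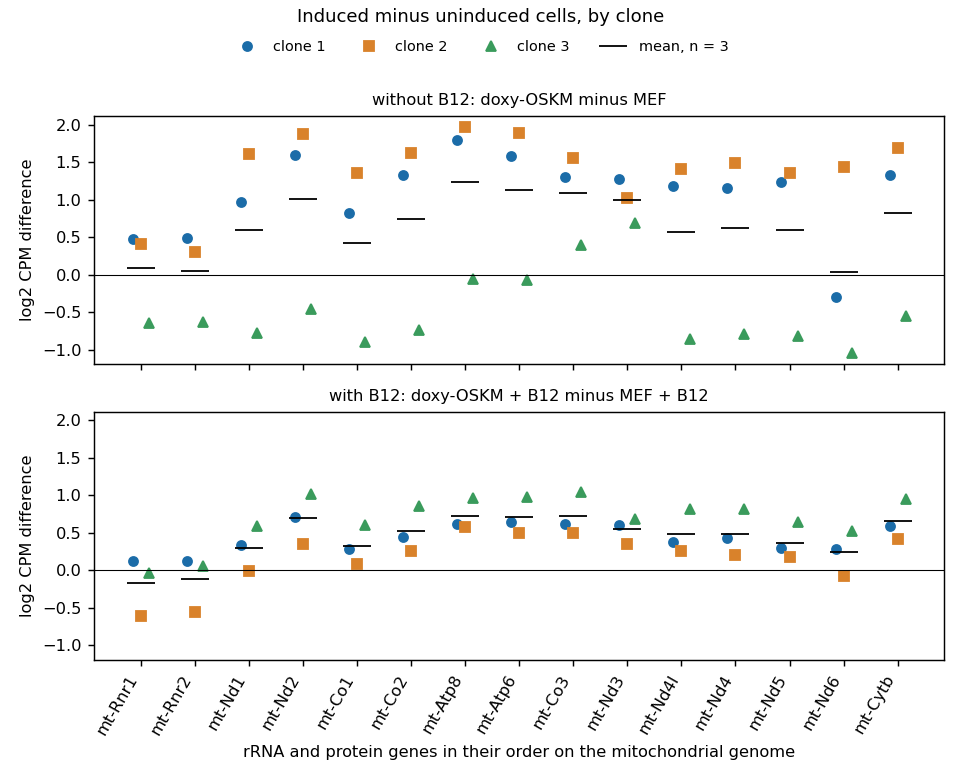
Log2 CPM difference between induced and uninduced cells of the same clone for the rRNA and protein genes in genome order, without B12 (top) and with B12 (bottom). Points are clones and bars their mean (n = 3). Without B12, clone 3 lay below 0 for all genes shown but mt-Co3 and mt-Nd3, while with B12 it lay above 0 for all 13 mRNAs.

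With B12 on both sides, induction was compared as doxy-OSKM + B12 against MEF + B12. No member was called in edgeR or in DESeq2, against 20 of 19174 genes (0.104%). In edgeR, 3 of 21 members had an unadjusted p under 0.05, against 2854 of the 19174 genes. All 13 mRNAs had a positive log2 fold change, with a median of 0.53. mt-Nd3 was at 118.3, 150.3 and 118.5 CPM in MEF + B12 and 180.3, 192.3 and 189.4 CPM in doxy-OSKM + B12 (log2 fold change 0.54 ± 0.15, adjusted p = 0.176). mt-Co3 was at 786.1, 1191 and 768.7 CPM in MEF + B12 and 1201, 1678 and 1584 CPM in doxy-OSKM + B12 (0.73 ± 0.23, adjusted p = 0.196). Both genes were higher in 3 of 3 clones without overlap of the groups. Of the 21 members tested, 6 did not overlap, the others being mt-Nd2, mt-Nd4l, mt-Cytb and the tRNA mt-Ts1, against 10.5% of all genes tested. Clone 3 showed the largest differences here, with a median of 0.82 over the mRNAs, against 0.45 in clone 1 and 0.26 in clone 2. It again had the lowest Pou5f1 and Sox2, with Pou5f1 at 20.7, 19.0 and 2.33 CPM and Sox2 at 15.9, 17.8 and 2.18 CPM in doxy-OSKM + B12. The clone with the lowest Pou5f1 and Sox2 thus had the lowest median mRNA difference without B12 and the highest with B12. The part of factor levels in these values was not tested. The rRNAs had log2 fold changes of -0.20 ± 0.25 for mt-Rnr1 and -0.14 ± 0.21 for mt-Rnr2.

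Averaged over both B12 states, 4 members were called higher in induced than in uninduced cells, and they are consecutive mRNA genes between positions 7766 and 9806. They were mt-Atp8 (log2 fold change 1.03 ± 0.27, adjusted p = 0.0386), mt-Atp6 (0.96 ± 0.26, adjusted p = 0.0423), mt-Co3 (0.92 ± 0.17, adjusted p = 0.0183) and mt-Nd3 (0.78 ± 0.10, adjusted p = 0.0077). No member was called lower. Of all genes tested, 9.73% were called in this comparison and 4.46% were called higher. In all, 10 of 21 members had an unadjusted p under 0.05, against 5144 of 19174 genes. mt-Nd2 (0.91 ± 0.29, adjusted p = 0.0691) and mt-Cytb (0.77 ± 0.25, adjusted p = 0.0752) did not pass, and mt-Rnr1 and mt-Rnr2 had log2 fold changes of -0.04 ± 0.18 and -0.03 ± 0.15. mt-Co3, mt-Nd3 and mt-Atp6 are among the genes that share their reads with the chromosome 1 copies, and mt-Atp8 shares 43 bases with mt-Atp6. Without the block for clone, and without clone 2, 0 members were called, while without clone 3, 11 were. Over all genes, these fits called 0, 3 and 3056 genes in this order. Markers of other cells moved in the same averaged comparison. Of 3 endothelial markers tested of 5, Cdh5 and Tek were called higher, and the summed level of the 5 was 41.7 to 46.5 CPM in MEF, 42.2 CPM in each library of MEF + B12, 52.9 to 144.8 CPM in doxy-OSKM and 48.7 to 138.5 CPM in doxy-OSKM + B12. The defining endothelial marker Pecam1 was at most 0.279 CPM and Emcn was at 0 in all MEF libraries. Adgre1 and Csf1r were called lower among 10 macrophage markers tested. Col1a1, Col1a2, Pdgfra and Pdgfrb were called lower among the 10 fibroblast markers, and the part of these cells in the mtDNA values was not tested.

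The mRNAs did not all shift by the same amount, which shows in the share that each took of the mtDNA mRNA counts. Such a share compares the mRNAs with each other within a library. The share of mt-Atp6 was 11.5%, 11.8% and 11.4% in MEF and 14.8%, 14.7% and 14.7% in doxy-OSKM. With B12 it was 12.6% ± 1.23 (SD, n = 3) in uninduced and 14.3% ± 1.42 in induced cells, where the groups overlapped although each clone had the higher share after induction. That of mt-Co1 was 26.3% ± 1.82 in MEF and 20.5% ± 0.861 in doxy-OSKM, and 24.3% ± 0.241 and 21.1% ± 0.370 with B12. Over the 6 pairs of libraries, each an induced and an uninduced culture of 1 clone at the same B12 state, mt-Atp8 and mt-Atp6 took a higher share in 6 of 6, by 0.14 to 0.58 and by 0.15 to 0.37 on the log2 scale. mt-Co1, mt-Nd4, mt-Nd4l and mt-Nd6 took a higher share in 0 of 6. mt-Nd2, mt-Co3 and mt-Cytb were higher in 5 of 6 pairs and mt-Nd1 and mt-Nd5 in 1 of 6. The share of mt-Nd3 had no common direction. It was 2.28%, 3.00% and 1.80% in MEF and 2.37%, 2.07% and 3.95% in doxy-OSKM. Thus the mRNA with the steadiest level was not the one with the steadiest share, since its share was highest in the library with the least mtDNA RNA of the induced cells. Across the 12 libraries the SD of the log2 share was smallest for mt-Cytb (0.07) and largest for mt-Nd3 (0.33) and mt-Nd6 (0.41). As shares of 1 total, these values depend on each other, and no test was made on them.

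**Figure D4:**
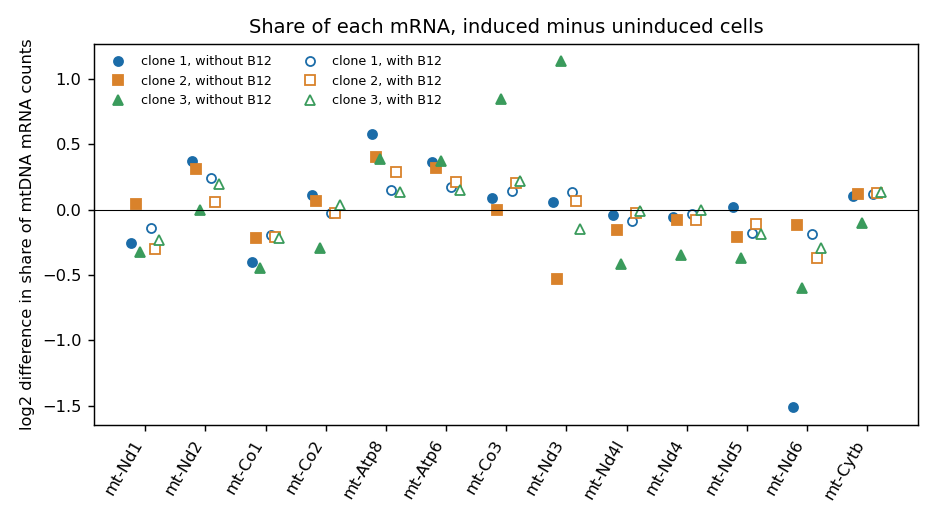
Log2 difference in the share of each mRNA among the mtDNA mRNA counts, induced minus uninduced cells of the same clone, in genome order. Filled points are cultures without B12 and open points with B12. mt-Atp8 and mt-Atp6 lay above 0 in 6 of 6 pairs, and mt-Co1, mt-Nd4, mt-Nd4l and mt-Nd6 in 0 of 6.

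The effect of vitamin B12 in induced cells was compared as doxy-OSKM + B12 against doxy-OSKM. It called no member in edgeR or in DESeq2, against 204 of 19174 genes (1.06%). In edgeR, 1 of 21 members had an unadjusted p under 0.05, against 1883 of the 19174 genes. The clones went separate ways by value. In clone 1, 12 of 13 mRNAs were lower with B12, with a median log2 difference of -0.66 and -1.03 for mt-Atp8, and only mt-Nd6 was higher, by 0.56. In clone 2 the median was 0.02 and 8 of 13 were higher. In clone 3 all 13 were higher, from 0.26 for mt-Nd3 to 1.75 for mt-Nd1, with a median of 1.44. mt-Co1 shows the pattern, with 2268, 2027 and 828.6 CPM without B12 and 1561, 2026 and 2140 CPM with it (log2 fold change 0.18 ± 0.35, adjusted p = 0.903). mt-Nd1, a complex I subunit with no word in a nuclear transcript, was at 689.5, 603.1 and 192.7 CPM without B12 and at 435.9, 586.1 and 649.4 CPM with it. For both genes the libraries with B12 lay closer together than those without. mt-Nd6 was the only mRNA higher with B12 in 3 of 3 clones, and it did not pass the test (log2 fold change 0.60 ± 0.33, adjusted p = 0.590). The member with the unadjusted p under 0.05 was the tRNA mt-Tp, on the minus strand, whose log2 fold change was 1.40 ± 0.41 (adjusted p = 0.208) from levels between 0.0519 and 0.265 CPM. It was also the only 1 of the 21 members tested whose groups did not overlap, against 7.53% of all genes tested.

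In uninduced cells, MEF + B12 was compared with MEF, and again no member was called in edgeR or in DESeq2, against 264 of 19174 genes (1.38%). In edgeR, 2 of 21 members had an unadjusted p under 0.05, against 1972 of the 19174 genes. All 21 log2 fold changes of members were positive, with a median of 0.44 over the mRNAs. By value clone 2 had the largest differences, in which the median was 1.31 and 13 of 13 mRNAs were higher, against medians of 0.06 in clone 1 and -0.02 in clone 3. The MEF library of clone 2 had the lowest mtDNA share of the 12 libraries, at 0.319%. mt-Co3 (0.55 ± 0.23, adjusted p = 0.440) and mt-Nd3 (0.33 ± 0.15, adjusted p = 0.480) were higher in 3 of 3 clones. The groups did not overlap for 5 of the 21 members tested, mt-Co3, mt-Nd3, mt-Nd2, mt-Atp8 and mt-Rnr2, against 9.39% of all genes tested. mt-Rnr2 was at 139.3, 130.7 and 144.4 CPM without B12 and at 149.6, 228.0 and 158.0 CPM with it (0.35 ± 0.21, adjusted p = 0.636).

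**Figure D5:**
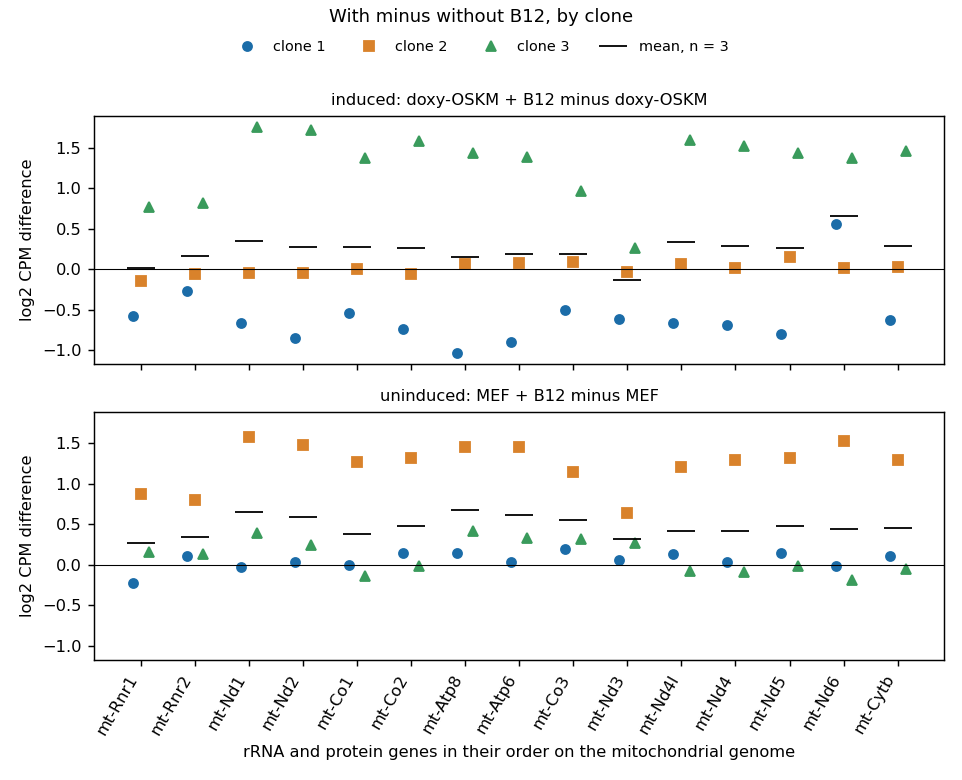
Log2 CPM difference between cultures of the same clone with and without B12, for the rRNA and protein genes in genome order, in induced cells (top) and uninduced cells (bottom). Points are clones and bars their mean (n = 3). In induced cells all mRNAs of clone 3 lay above 0 and all of clone 1 but mt-Nd6 below 0, and in uninduced cells clone 2 lay apart from the other clones.

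Averaged over both states, B12 called no member in edgeR or in DESeq2, against 736 of 19174 genes (3.84%). The median log2 fold change of the mRNAs was 0.30, and that of mt-Co3 was 0.36 ± 0.17 (adjusted p = 0.335). In edgeR, 1 of 21 members, mt-Tp, had an unadjusted p under 0.05, against 2964 of the 19174 genes. In the same comparison 9 of 10 macrophage markers tested were called higher, while the other was not called, at a log2 fold change of -0.45. Their summed level, over 11 markers none of which was at 0 throughout, was 1186 to 2265 CPM in MEF, 1798 to 3003 CPM in MEF + B12, 1195 to 2088 CPM in doxy-OSKM and 1822 to 2386 CPM in doxy-OSKM + B12, and the part of such cells in the mtDNA values was not tested. The interaction, which is the log2 effect of B12 in doxy-OSKM minus that in MEF, called 0 members and 0 of 19174 genes (0%) in edgeR and 0 in DESeq2, with 273 genes at an unadjusted p under 0.05 in edgeR. It was negative for 17 of 21 members, with a median of -0.31 over the mRNAs, and -0.47 ± 0.21 for mt-Nd3 (adjusted p = 1.00), the sole member at an unadjusted p under 0.05. A difference in the B12 effect between induced and uninduced cells was thus not shown for these genes.

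The spread of the mtDNA mRNAs that the clone and group terms left was wider than that of a typical gene. The biological coefficient of variation estimated by edgeR in this fit was 12.9% for mt-Nd3, 17.6% for mt-Rnr2, 19.8% for mt-Co3 and 21.0% for mt-Rnr1, and between 27.7% for mt-Nd6 and 33.6% for mt-Nd2 in the other mRNAs. The median over all genes tested was 7.79%, and over the 5829 genes with a mean log2 CPM of at least 5 it was 5.55%. mt-Atp6, for example, varied by 30.2% although each library held at least 24059 of its counts.

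Genes of the nucleus that act on mtDNA and its RNA were described as lists. Of 17 genes for transcription and replication of mtDNA, 0 were called in induction without or with B12 and 1 in induction averaged, against 9.73% of all genes in the latter, namely Mterf2, a mitochondrial transcription termination factor family member (log2 fold change 0.41 ± 0.11, adjusted p = 0.0452). Mterf2 was at 1.90, 1.56 and 1.97 CPM in MEF and 3.28, 2.16 and 2.19 CPM in doxy-OSKM. The list's median log2 fold change was 0.04 without B12, against -0.01 over all genes. The polymerase gene Polrmt had a log2 fold change of -0.03 ± 0.06 (adjusted p = 0.828), the packaging and initiation factor Tfam 0.04 ± 0.06 (adjusted p = 0.765) and the elongation factor Tefm -0.01 ± 0.10 (adjusted p = 0.969), all without B12. Of 31 genes for processing, modification and decay of mitochondrial RNA, 1 was called in induction averaged, Elac2, which trims the 3′ ends of tRNAs (0.15 ± 0.04, adjusted p = 0.0406). The RNA-stabilising pair Lrpprc and Slirp had log2 fold changes of -0.05 ± 0.06 (adjusted p = 0.646) and 0.13 ± 0.06 (adjusted p = 0.246) without B12. Of 9 regulators of mitochondrial biogenesis, 1 was called in induction averaged, Myc (0.88 ± 0.17, adjusted p = 0.0206), which is itself one of the induced factors. No gene of these 3 lists was called in a comparison of B12. With 1 gene each called of 17, 31 and 9 in induction averaged, none of these counts is a result about its list beside the 9.73% of all genes.

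The mtDNA members of each complex varied more between libraries than its nuclear subunits did. The summed level of the 7 mtDNA genes of complex I ran from 896 to 3388 CPM over the 12 libraries, 3.78-fold, against 1464 to 1626 CPM, 1.11-fold, for 37 nuclear subunits, and the corresponding factors were 3.95 and 1.13 for complex III, 3.15 and 1.17 for complex IV and 4.63 and 1.12 for complex V. Of these nuclear subunits 0 were called in induction without B12, with B12 and averaged in edgeR, against 0.073%, 0.104% and 9.73% of all genes, and 1, Cyc1 of complex III, in B12 averaged, against 3.84% (log2 fold change 0.18 ± 0.04, adjusted p = 0.0269).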

How the data were processed

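The authors made strand-specific libraries from poly(A)-selected RNA, sequenced them as paired ends over several flow cells, aligned the reads to mm10 (GRCm38) with STAR (version 2.5.2 in the submitters' processing notes) and used featureCounts, set to reverse strand, to count pairs. The table deposited by the authors holds raw counts for each gene, with the flow cells of a library added together. The handling of reads that match several loci is not given in the sources used here. The methods give doxycycline at 1 mg/ml for cultured cells, against 1 µg/ml in the labels.

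Symbols and coordinates (1-based) came from GENCODE M21 on GRCm38, which matched 55480 of 55573 identifiers. The 31-base words of each member were looked up in the transcripts of all nuclear genes. Counts were scaled by TMM (factors 0.934 to 1.06) into CPM, and log2 CPM used a prior count of 2. Counts carry no molecular identifiers, so precision from counting leaves out amplification error. The quasi-likelihood test of edgeR 4.0.16 (R 4.3.3, limma 3.58.1) was fitted on 19174 genes kept by filterByExpr, with clone and group as terms and Benjamini-Hochberg adjustment over all of them (threshold 0.05). To test whether clones differed in induction over both B12 states together, clone by state terms were added in a second fit. Adjusted p-values in the text are from edgeR unless another tool is named, and log2 fold changes are given ± SE. The clone (1 embryo) entered as a block since all groups were grown from it. Deviations from the group means were shared within a clone (correlations across genes 0.270 to 0.687 over 18 pairs, against -0.510 to 0.170 over 36 pairs of different clones). As the group means were subtracted first, the deviations of the libraries of a group cancel out. The lower values between different clones follow in part from this step and are not a separate check. With 1 library of each group per clone, p-values measure how far differences between groups vary among these 3 clones, pooled over all groups. Differences between clones that all groups share are taken out by the block. The fit was tested on simulated data with known changes before use. The simulation gave all genes 1 spread, narrower than that of the mtDNA mRNAs, and the same induction effect in each clone. It therefore does not show how the fit behaves for these members. Sums, shares and medians over members were described without a test.

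The members, marker lists and lists of nuclear genes were chosen with earlier results of these data known. All 37 members are accounted for, the mRNAs, rRNAs and tRNAs past the filter by name and the rest by count. From the nuclear lists, Polrmt, Tfam, Tefm, Lrpprc, Slirp and any gene past the threshold were named, up to 5 per comparison. The further marker lists were of muscle, where summed levels were 2.49 to 8.02 CPM, and nerve, 31.8 to 51.8 CPM, with 0 and 1 called (Tubb3, lower in induction averaged). Alternatives were DESeq2 1.42.0, size factors of DESeq2 or plain library totals instead of TMM, scaling without mtDNA genes and their copies, no filter, at least 10 counts in every library, only the groups compared, no clone block, leaving out each clone or single libraries, and adding the counts of copies. Tables and plots used Python 3.11.15 with pandas 2.3.3, numpy 2.4.6 and matplotlib 3.10.9.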

Additional observations from a re-analysis of the deposited data

How the results depend on the processing

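The scaling alternatives (DESeq2 size factors, library totals, scaling without mtDNA genes and copies) changed no call of a member. The counts summed with copies changed none either. As a copy kept a near-constant ratio to its member, that sum could hardly move a call and is no check of it. For induction without B12, where 1 member was called, 2 were called by DESeq2 (mt-Co3 added, adjusted p = 0.0417), 5 without a filter, 0 with at least 10 counts in every library, 0 with no replicate block for the clone and 0 in a fit of only the groups compared. Leaving out 1 clone gave 0 to 11, the 11 being without clone 3. Over all genes, 1 was called without clone 1, 1 without clone 2 and 1322 of 19231 without clone 3. Without the doxy-OSKM library of clone 1, 0 members and 5 of all genes were called. With libraries chosen for their low mtDNA share after seeing the data, 0 members were called without MEF clone 2, 12 without doxy-OSKM clone 3 and 0 without both. Over all genes, these fits called 3, 961 and 6 genes in this order. The adjusted p of mt-Nd3 ranged up to 0.705, which it had without the block. For induction with B12, 2 members were called without a filter, against 0. For induction averaged, where 4 were called, 9 were called without a filter, 0 with no replicate block, 0 to 11 without 1 clone (0 without clone 2, 1 without clone 1 and 11 without clone 3), 2 without doxy-OSKM clone 1, 1 without MEF clone 2, 13 without doxy-OSKM clone 3 and 13 without both. Over all genes, induction averaged called 1865 in the main fit, 2552 without a filter, and 10, 3 and 3056 without clones 1, 2 and 3. It called 771 genes without doxy-OSKM clone 1, 58 without MEF clone 2, 3041 without doxy-OSKM clone 3 and 1287 without both. The comparisons of B12, the interaction and the difference between clones called 0 members in all alternatives run, and no log2 fold change of a member past the threshold changed sign. The cause of these changes was not tested. Adding the copies, and further nuclear genes that held fewer words of a member, gave a mean summed share of 0.711% in MEF and 1.01% in MEF + B12. It was 1.38% in doxy-OSKM and 1.49% in doxy-OSKM + B12. These sums are not estimates of the mtDNA share, since the counts of a member and its copy are not separate measurements. Over all genes, DESeq2 called 487 (edgeR 14) in induction without B12, 416 (20) with B12, 388 (204) for B12 in doxy-OSKM and 469 (264) in MEF, no filter called 681 and 646 for induction without and with B12, and at least 10 counts called 2 and 1. With no block, 0 were called in each comparison but B12 averaged, where 90 were, against 736. The 16 tRNA genes below the filter had too few counts for a test.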
